A study of Mus musculus with 61 samples.

Results

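*Otx2*, *Fgf5*, *Pou3f1*, *Foxd3*, *Nes*, *Sox1*, *Tcf15*, *Zic2* and *Pax6* are genes of primed pluripotency and of the first embryonic lineages. They were chosen by name, with earlier results of these data known. Of the 9 named genes, 7 could be followed through all 12 conditions, among 18396 genes in the table. *Pou3f1* and *Sox1* were not analysed here. RNA was measured in 61 libraries to ask what loss or excess of ZFP708, a KRAB zinc-finger protein of mouse oocytes that binds RMER19B retroelements, does to expression. Knockout (KO) oocytes and embryos were maternal null, the oocytes from KO females and the embryos from KO mothers and wild-type fathers, and stood beside wild-type (WT) ones as 7 KO and 7 WT germinal vesicle (GV) oocytes, 7 KO and 7 WT zygotes, 8 KO and 7 WT 2-cell embryos (all single) and 3 KO and 3 WT pools of 10 blastocysts. Blastocyst-derived mouse embryonic stem cells (mESCs) were maternal and zygotic null (3 KO libraries) or WT (3 libraries), and E14 mESCs, a widely used line, either overexpressed 3xFLAG-tagged ZFP708 (OE, 3 libraries) or were controls (3 libraries). The labels give LIF and serum for the mESC cultures, while the study's methods describe derivation in 2i medium on feeder cells and later growth on gelatin without feeders.

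In the mouse embryo, naive pluripotent cells of the blastocyst pass through a formative to a primed state around implantation, and from there they are allotted to the germ layers. OTX2 and POU3F1 are transcription factors of that exit, FGF5 is the growth factor whose RNA marks the primed epiblast, and FOXD3, ZIC2 and TCF15 are transcription factors with roles in stem cells around the same step. Nestin (*Nes*), SOX1 and PAX6 belong to the neural lineage that the epiblast gives rise to, nestin as an intermediate filament protein and SOX1 and PAX6 as transcription factors.

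The promoters of the 4 genes that differed most in mESCs are printed to show the sequence around their starts, as windows of 300 bases from RefSeq on GRCm38.p6, 5′ to 3′ on the strand of the gene. Capitals mark matches, on both strands, to 6 motifs: the TATA box (TATAAA), the CCAAT box (CCAAT), the GC box bound by SP1 (GGGCGG), a site of OTX factors (TAATCC), the octamer core of POU factors (ATGCAAA) and a site of SOX factors (CATTGT). *Otx2* lies on chr14:48667595-48667894 (minus strand, the first of 4 *Otx2* windows), *Fgf5* on chr5:98253934-98254233 (plus strand), *Nes* on chr3:87970843-87971142 (plus strand) and *Foxd3* on chr4:99656049-99656348 (plus strand).
Otx2: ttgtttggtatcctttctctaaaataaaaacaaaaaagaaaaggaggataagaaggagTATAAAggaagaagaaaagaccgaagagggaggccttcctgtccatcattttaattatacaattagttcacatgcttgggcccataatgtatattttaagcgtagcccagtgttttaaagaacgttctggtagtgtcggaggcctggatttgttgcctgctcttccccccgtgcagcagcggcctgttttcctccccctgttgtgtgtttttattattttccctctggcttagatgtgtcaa
Fgf5: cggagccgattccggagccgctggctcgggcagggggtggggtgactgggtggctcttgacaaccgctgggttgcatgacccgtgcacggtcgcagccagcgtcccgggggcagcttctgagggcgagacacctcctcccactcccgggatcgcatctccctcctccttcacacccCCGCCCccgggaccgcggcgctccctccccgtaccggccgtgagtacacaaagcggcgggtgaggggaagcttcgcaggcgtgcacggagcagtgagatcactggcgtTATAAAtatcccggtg
Nes: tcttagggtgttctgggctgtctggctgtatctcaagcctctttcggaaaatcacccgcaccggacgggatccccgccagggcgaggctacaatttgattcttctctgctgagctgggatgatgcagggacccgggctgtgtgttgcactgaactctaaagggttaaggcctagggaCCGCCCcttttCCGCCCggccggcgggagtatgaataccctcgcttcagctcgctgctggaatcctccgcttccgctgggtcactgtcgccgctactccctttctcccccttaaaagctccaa
Foxd3: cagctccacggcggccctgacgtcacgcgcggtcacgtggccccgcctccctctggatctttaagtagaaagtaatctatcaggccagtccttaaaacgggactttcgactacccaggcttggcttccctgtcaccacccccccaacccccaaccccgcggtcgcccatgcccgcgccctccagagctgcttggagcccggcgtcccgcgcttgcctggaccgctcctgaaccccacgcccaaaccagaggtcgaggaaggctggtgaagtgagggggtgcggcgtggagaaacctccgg

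The printed *Otx2* window held 1 TATAAA and 6 CG dinucleotides, close to the median of 7 over 32851 promoters. The other *Otx2* windows held 8, 16 and 11 CG and no TATAAA. The one with 8 CG had 1 CCAAT, and the one with 16 CG had 1 TAATCC. The windows of *Fgf5*, *Foxd3* and *Nes* held 29, 25 and 18 CG. *Fgf5* had 1 TATAAA and 1 GGGCGG (as CCGCCC), *Nes* had 2 GGGCGG, both as CCGCCC, and the *Foxd3* window held none of the motifs. TATAAA occurs in 13.6% and GGGCGG in 35.7% of all promoters of this length, so these matches only describe the windows. Each window ends a little past the start of the gene, and matches were counted at any position. The *Fgf5* TATAAA lies near the end of its window, past that start, so a match need not be a TATA box. Of the other members, *Pax6* had 2 windows in the table, one with a CCAAT, while *Tcf15* and *Zic2* are named only.

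The values are the deposited normalized counts, which are reads in a gene divided by the size factor of the library. A single read was worth 0.208 to 0.397 in the 43 libraries of single oocytes and embryos (2486334 to 4844699 reads in genes) and 0.0441 to 0.0728 in blastocysts and mESCs (12469548 to 19596785 reads). *Zfp708* checked the OE labels, at 530.2 to 722 in OE and 6.35 to 7.03 in control cells. It does not check the KO labels, because the KO allele is a small frameshift deletion whose transcript is not degraded by the study's qRT-PCR. mESC markers summed to between 2586 and 3872 in the 12 mESC libraries, and none of the 6 was at 0. Libraries of a group were not equally distant from each other. OE library 3 stood apart from OE libraries 1 and 2, whereas the 3 control libraries, OE libraries 1 and 2, KO mESC libraries 2 and 3 and WT mESC libraries 1 and 3 lay close together. For DNA methylation the study used 3 independently isolated mESC lines of each genotype, but it does not say that these RNA libraries came from them. Nor is it stated that the E14 libraries were separate cultures, or from how many mothers the embryos came. The p-values therefore measure only the spread between these samples. Between the 3 control libraries that spread was little more than sampling noise, so p-values against them may count 1 culture as 3. Each comparison below was fitted with limma on log2(value + 1) over all genes tested, and a call means an adjusted p (Benjamini-Hochberg) under 0.05. All log2 fold changes refer to log2(value + 1), so those of genes with few reads come out smaller than their ratios.

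Across the 12 conditions, each of these genes had its highest mean in a group of mESCs, but not in the same group (plot of every library). *Otx2*, *Fgf5*, *Nes* and *Pax6* were highest in control E14 cells, *Tcf15* in OE cells, and *Foxd3* and *Zic2* in KO mESCs. *Otx2* had no read in any of the 7 KO and 7 WT GV oocytes or the 7 KO and 7 WT zygotes, which allows mean levels of up to 0.119 (KO GV), 0.108 (WT GV), 0.121 (KO zygote) and 0.141 (WT zygote) at 3 reads per group, for counting error only. It was first seen in 2 KO and 1 WT 2-cell embryos, at up to 2.03 in KO and 1.60 in WT. In blastocyst pools *Otx2* was at 2.86, 3.57 and 6.56 in KO and at 3.20, 5.07 and 2.73 in WT. The highest level by far was that of control E14 cells, followed by OE cells, then both blastocyst groups, whose libraries overlapped, then KO mESCs and WT mESCs. *Fgf5* had 6 reads in all 43 single oocytes and embryos and 2 reads in 1 KO blastocyst pool. *Fgf5* was therefore seen almost only in mESCs, highest in control E14 cells, while the OE libraries overlapped both KO and WT mESCs below them and the KO libraries all lay above the WT libraries.

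*Zic2* and *Foxd3* showed a step between embryos and mESCs. *Zic2* had 16 reads in the 43 single oocytes and embryos, 2 reads in the KO blastocyst pools and 0 in the 3 WT pools, which allows up to 0.0613 there. *Zic2* averaged 93.5 ± 3.97 in KO mESCs, 82.1 ± 15.3 in WT mESCs, 13.1 ± 2.42 in OE cells and 34.8 ± 0.761 in control E14 cells (SD, n = 3 each). *Foxd3* had 11 reads in 4 of the 43 single oocytes and embryos. In blastocyst pools it was at 5.13, 0.757 and 0.110 in KO and at 1.53, 0.543 and 2.36 in WT, below every mESC library. *Foxd3* is a single-exon gene here (chromosome 4, 99322990 to 99325362 in mm9), and a miRNA model lies within it.

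*Nes*, *Tcf15* and *Pax6* were also read in oocytes and early embryos. *Nes* had reads in 38 of the 43 single oocyte and embryo libraries, with a median of 1.87, and stayed between 1.33 and 2.91 in the 6 blastocyst pools. *Tcf15* had reads in 27 of the 43 (median 0.649) and was the one member as high in blastocysts as in control E14 cells. *Tcf15* was at 32.6, 28.4 and 35.9 in KO and at 35.0, 45.2 and 21.8 in WT blastocyst pools, overlapping control E14 cells and lying above all 6 libraries of blastocyst-derived mESCs. *Pax6* had reads in all 43 oocytes and embryos (3.43 to 28.8, median 8.93), in the blastocyst pools (7.62 to 9.84) and in E14 cells (13.1 to 16.6). In blastocyst-derived mESCs *Pax6* was lower, at 1.19 to 9.01 (median 4.10), with its lowest mean of the 12 conditions in KO mESCs (2.44). *Pax6* (105509053 to 105543317 in mm9) is overlapped on the opposite strand by *Elp4* at its far end only (from 105537477). *Pax6os1*, which has no values here, overlaps its start (up to 105510487). The single oocyte, zygote and 2-cell libraries were not made with strand, so reads within these overlaps cannot be told apart there. *Elp4* averaged 25.1 ± 4.60 in KO and 21.9 ± 3.76 in WT GV oocytes (SD, n = 7 each), above *Pax6*.

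**Figure D1:**
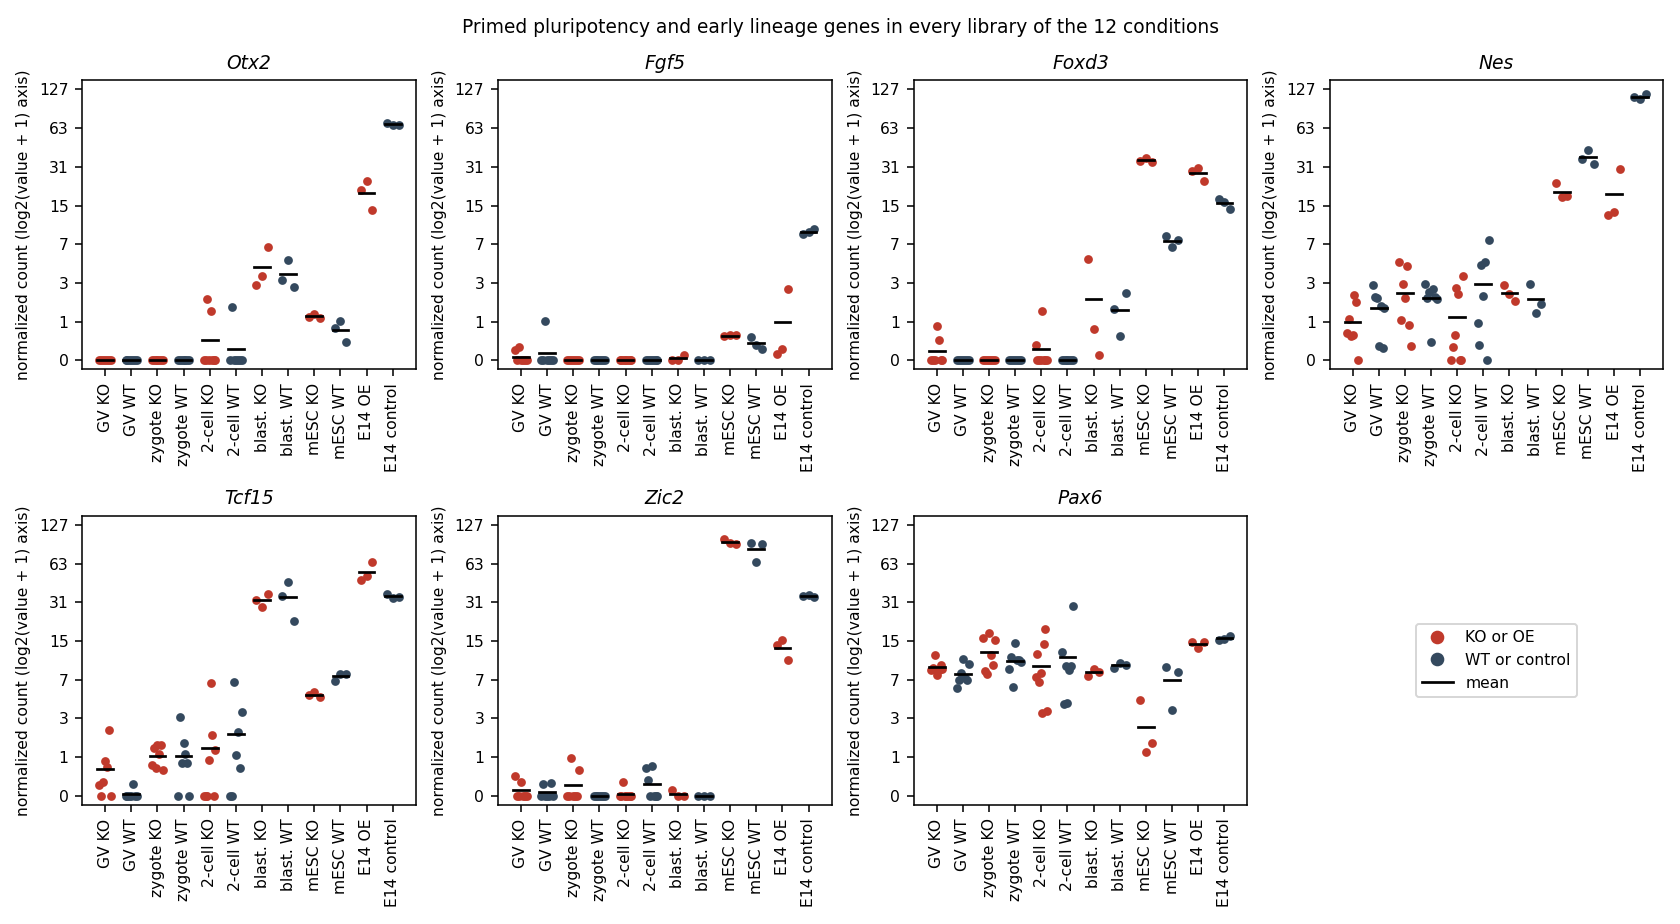
Normalized count of each of the 7 genes (y axis, on a log2(value + 1) scale) in every library of the 12 conditions (x axis). Points are libraries, red for KO or OE and blue for WT or control, and bars are means. *Otx2*, *Fgf5*, *Foxd3* and *Zic2* are at or near 0 in oocytes, zygotes and 2-cell embryos, while *Pax6* has reads in every library.

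Per kilobase of exon, which allows genes to be set beside each other, the mean normalized count of *Zic2* was 19.6 in WT mESCs, ahead of *Tcf15* (7.64), *Nes* (5.75) and *Foxd3* (3.15), with *Pax6*, *Otx2* and *Fgf5* each under 1. The order in control E14 cells was another: *Tcf15* had 35.2 per kilobase, *Otx2* 19.96, *Nes* 17.4, *Zic2* 8.32, *Foxd3* 6.61, *Fgf5* 3.62 and *Pax6* 0.796. The low place of *Pax6* depends on its exon length. That was 19.8 kb over all its models, against 0.98 kb (*Tcf15*) to 6.42 kb (*Nes*) for the other members. Before division by length, *Pax6* averaged 15.8 in control E14 cells, above *Fgf5* at 9.06.

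In KO mESCs, *Foxd3* rose and *Nes* and *Tcf15* fell. *Foxd3* (chromosome 4), a forkhead factor needed for the upkeep of pluripotent cells in the mouse, was at 34.3, 36.6 and 33.8 in KO mESCs and at 8.27, 6.58 and 7.58 in WT mESCs. Every KO library lay above every WT library, and the ratio of means was 4.67. The log2 fold change was 2.09 ± 0.10 (SE, limma adjusted p = 0.00112). *Nes* (chromosome 3, 87775000 to 87784373 in mm9) was at 22.9, 17.6 and 17.9 in KO and at 35.6, 42.2 and 33.0 in WT mESCs, so the groups did not overlap. Its log2 fold change was -0.89 ± 0.14 (SE, limma adjusted p = 0.0125). *Tcf15* (chromosome 2, 151969297 to 151974833 in mm9), a basic helix-loop-helix factor later needed for somites, was at 5.04, 5.43 and 4.85 in KO and at 6.85, 7.81 and 7.80 in WT mESCs. The log2 fold change of *Tcf15* was -0.47 ± 0.11 (SE, limma adjusted p = 0.0395). The study picked *Tcf15* for display from these same libraries, as a changed gene near a ZFP708-bound element, so its change here is not independent evidence of a direction.

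These 3 calls came from 6 members tested (1 higher, 2 lower), where 13.9% of the 11963 genes tested were called, 8.26% higher and 5.6% lower. They differed in how firmly they held. *Foxd3* was called in all 6 fits that left out 1 library and in all 12 other settings, also where near-identical libraries were averaged (log2 2.12, adjusted p = 0.0172). *Nes* lost its call without KO library 2 (adjusted p = 0.0685), without KO library 3 (0.0623) and with near-identical libraries averaged (limma adjusted p = 0.257). *Tcf15* lost it in 5 of the 6 fits that left out 1 library, all but the one without WT library 2, at limma adjusted p-values of 0.0834 to 0.147, without a minimum level (0.0513) and with near-identical libraries averaged (0.199). Both *Nes* and *Tcf15* also lost it where the spread was taken over all 12 groups (limma adjusted p = 1.00 for each).

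Sums of cell type markers moved with these groups too. The 7 trophectoderm markers summed to between 112 and 125 in KO and between 152 and 193 in WT mESCs, with none at 0. *Tfap2c*, *Eomes* and *Krt8* were the highest of these in both groups. The 6 mESC markers summed to between 3664 and 3872 in KO and between 3140 and 3337 in WT mESCs. Their part in these changes was not tested.

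The other members were not called in KO mESCs. *Otx2* was at 1.19, 1.30 and 1.15 in KO and at 0.790, 1.02 and 0.384 in WT mESCs, which is 71 reads against 41 reads in all, with a log2 fold change of 0.37 ± 0.18 (SE, limma adjusted p = 0.202). Its KO libraries all lay above the WT libraries, without a call. *Zic2* overlapped between the groups, at 98.1, 91.9 and 90.6 in KO and at 92.0, 64.5 and 89.8 in WT mESCs (log2 0.20, 95% interval -0.13 to 0.54, limma adjusted p = 0.363). *Pax6* was at 4.56, 1.19 and 1.59 in KO and at 9.01, 3.64 and 8.13 in WT mESCs, also overlapping. Its log2 fold change of -1.25 ± 0.43 (SE) had a limma adjusted p = 0.107, which became 0.0297 without WT library 2, and DESeq2 called it (adjusted p = 0.0450). *Elp4*, on the other strand, averaged 28.4 ± 2.17 in KO and 27.8 ± 0.948 in WT mESCs (SD, n = 3 each). *Fgf5*, at 0.542, 0.566 and 0.573 in KO and 0.527, 0.321 and 0.220 in WT mESCs, lay under the minimum for the test. Without that minimum its log2 difference was 0.21 (limma adjusted p = 0.228).

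In OE cells, 4 members fell and 2 rose. *Otx2* (chromosome 14, 49277354 to 49287319 in mm9) was at 20.1, 23.7 and 13.8 in OE and at 69.2, 66.8 and 67.3 in control cells. All OE libraries were lower, by a ratio of means of 3.54, and the log2 fold change was -1.80 ± 0.17 (SE, limma adjusted p = 8.73e-05). *Fgf5* (chromosome 5, 98683203 to 98706049 in mm9) was at 0.116, 0.233 and 2.58 in OE, from 2, 4 and 41 reads, and at 8.68, 8.96 and 9.53 in control cells. OE library 3, which stood apart from the other OE libraries over all genes, held most of the *Fgf5* reads of its group. The log2 fold change of *Fgf5* was -2.56 ± 0.41 (SE, limma adjusted p = 0.00173) and -3.10 without that library. *Nes* was at 12.4, 13.3 and 30.0 in OE and at 110.4, 108 and 117 in control cells, and again OE library 3 was nearest to the control. Its log2 fold change was -2.64 ± 0.31 (SE, limma adjusted p = 0.000606), and -3.02 without OE library 3. *Zic2* (chromosome 14, 122874604 to 122879074 in mm9), a zinc-finger factor, was at 13.8, 15.1 and 10.4 in OE and at 35.1, 35.4 and 33.9 in control cells, a log2 fold change of -1.36 ± 0.11 (SE, limma adjusted p = 1.07e-05).

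*Foxd3* and *Tcf15* went the other way. *Foxd3* was at 28.9, 30.6 and 23.8 in OE and at 17.0, 16.1 and 13.95 in control cells (log2 0.78 ± 0.10 SE, limma adjusted p = 0.000172). *Tcf15* was at 46.8, 50.3 and 64.6 in OE and at 35.9, 33.3 and 34.4 in control cells (log2 0.62 ± 0.10 SE, limma adjusted p = 0.00102). In both, every OE library lay above every control library. *Pax6*, a paired-domain factor of eye and brain, was at 14.8, 13.1 and 14.6 in OE and at 15.2, 15.6 and 16.6 in control cells and was not called (log2 -0.15, 95% interval -0.32 to 0.03, limma adjusted p = 0.142).

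OE cells differed from control cells at 49.9% of the 12257 genes tested (21.9% higher, 28.1% lower), and the 6 calls among 7 members (2 higher, 4 lower) are to be read against that background. By the size of their change, *Nes*, *Fgf5*, *Otx2* and *Zic2* lay at the 99.9, 99.9, 99.4 and 98.1 percentiles of the absolute log2 fold change over all genes tested, and *Foxd3* and *Tcf15* at 92.2 and 88.1. The 6 calls held without each library in turn. With near-identical libraries averaged, the control group was 1 value and none of the 7 was called, at limma adjusted p-values of 0.0714 for *Otx2*, 0.0758 for *Zic2* and 0.0766 for *Nes*, 0.140 for *Fgf5*, 0.162 for *Foxd3* and 0.201 for *Tcf15*. With the spread over all 12 groups *Foxd3* (0.381) and *Tcf15* (1.00) lost their calls. Whether the control cells went through the transfection, puromycin selection and sorting that made the OE cells is not stated, so these steps and ZFP708 cannot be told apart. The 10 feeder fibroblast and smooth muscle markers also moved with the groups, summing to between 16.8 and 28.2 in OE and between 110.3 and 119 in control cells, with *Postn* and *Lum* at 0 in both groups and *Dcn* at 0 in OE. The 7 trophectoderm markers summed to between 46.8 and 55.5 in OE and between 104.6 and 110.1 in control cells, with *Elf5* at 0 in both, and the 6 mESC markers to between 3237 and 3492 in OE and between 2586 and 2598 in control cells. Their part in the result was not tested.

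**Figure D2:**
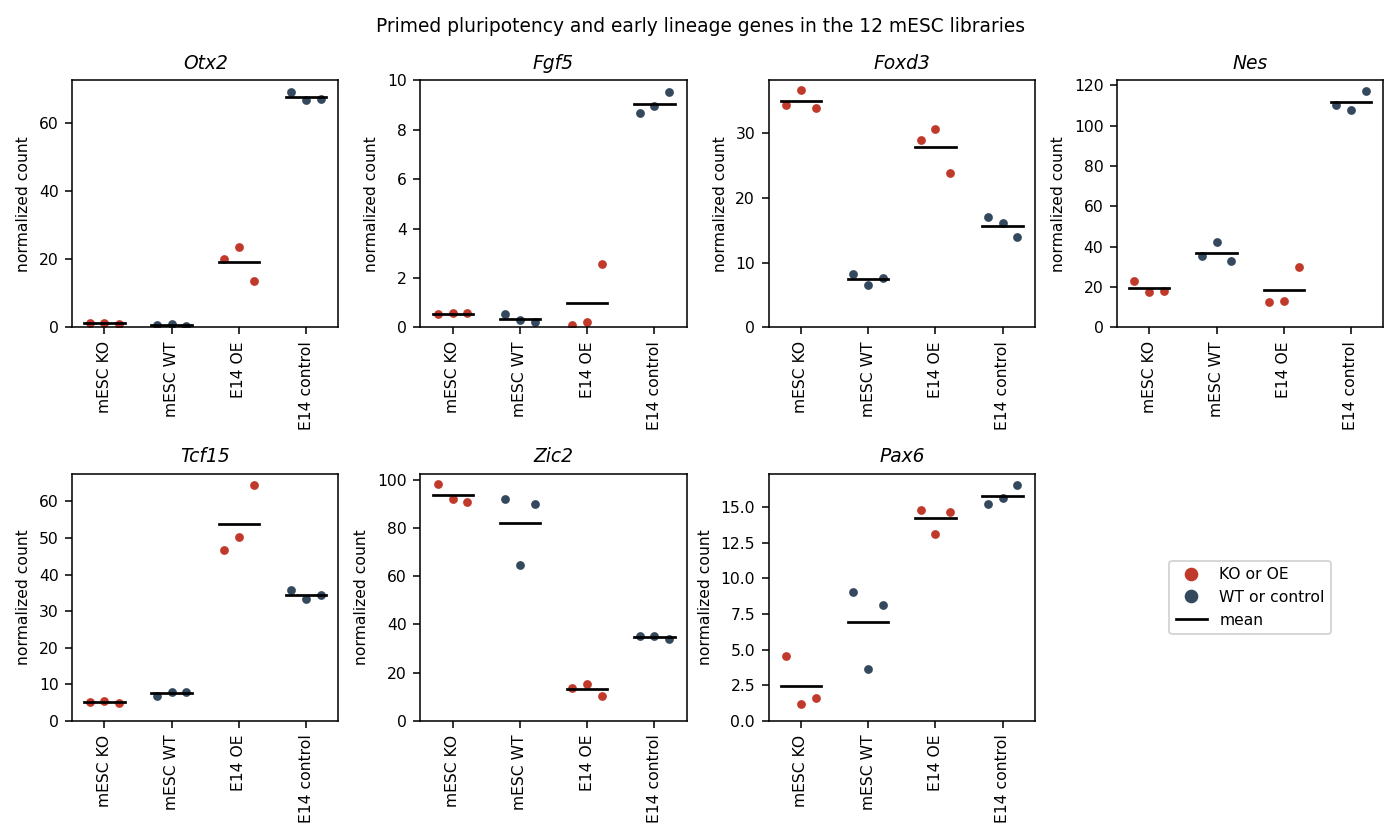
Normalized count of each of the 7 genes (y axis, linear from 0, a scale for each gene) in the 12 mESC libraries (x axis, KO and WT mESCs, OE and control E14 cells). Points are libraries and bars are group means. *Otx2*, *Fgf5* and *Nes* are highest in control E14 cells, and *Zic2* in KO and WT mESCs. For *Fgf5* and *Nes*, OE library 3 lies above the other OE libraries.

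The effects of KO and OE were compared directly, as OE minus control less KO minus WT in a single limma fit of the 12 mESC libraries, where 23.2% of 12797 genes were called (8.87% higher, 14.3% lower). Of 7 members tested, 5 were called lower and 1 higher. The difference of effects was -2.77 ± 0.47 for *Fgf5* (SE, adjusted p = 0.00181), -2.17 ± 0.25 for *Otx2* (0.000182), -1.74 ± 0.35 for *Nes* (0.00487), -1.56 ± 0.20 for *Zic2* (0.000294) and -1.30 ± 0.16 for *Foxd3* (0.000228). *Foxd3* and *Nes* thus changed in the same direction under KO and OE, *Foxd3* more under KO and *Nes* more under OE. *Tcf15* was the member with opposite calls, lower in KO mESCs and higher in OE cells, and its difference was 1.09 ± 0.16 (SE, limma adjusted p = 0.000609). *Pax6* was not called (1.10 ± 0.46 SE, limma adjusted p = 0.110, and 0.0138 without KO library 1 or 0.0178 without WT library 2). With near-identical libraries averaged, none of the 6 calls was kept (limma adjusted p-values of 0.127 to 0.338), and with the spread over all 12 groups *Foxd3* (0.264), *Nes* (0.934) and *Tcf15* (1.00) lost theirs.

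**Figure D3:**
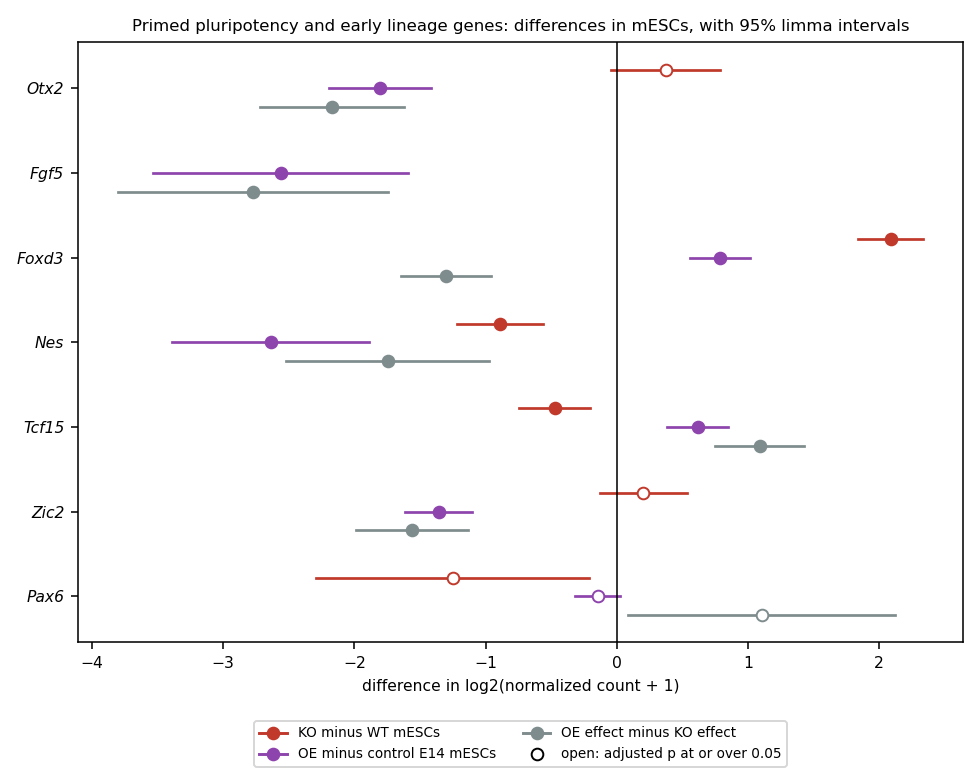
Differences in log2(normalized count + 1) (x axis) for each gene (y axis): KO minus WT mESCs, OE minus control E14 mESCs, and the OE effect minus the KO effect. Points are limma estimates, lines are 95% intervals, and open points are not past an adjusted p of 0.05. *Foxd3* lies right of 0 for both KO (2.09) and OE (0.78), *Nes* lies left of 0 for both (-0.89 and -2.64), and *Tcf15* lies on opposite sides (-0.47 and 0.62).

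WT mESCs and control E14 cells, both without a change of ZFP708, were themselves far apart in these genes. This comparison shares its libraries with the KO and the OE comparison. *Otx2* averaged 0.730 ± 0.320 in WT mESCs and 67.8 ± 1.29 in control E14 cells (SD, n = 3 each), 92.8 times as high in the E14 cells. The log2 fold change of *Otx2* was -5.33 ± 0.15 (SE, limma adjusted p = 3.01e-06). *Fgf5* averaged 0.356 ± 0.156 in WT mESCs and 9.06 ± 0.437 in control E14 cells, *Tcf15* 7.48 ± 0.552 and 34.5 ± 1.29, and *Nes* 36.9 ± 4.72 and 112 ± 4.98 (SD, n = 3 each). Their log2 fold changes were -2.90, -2.07 and -1.58, with limma adjusted p-values of 9.43e-06, 7.86e-06 and 3.56e-05. *Foxd3* (-0.98, limma adjusted p = 0.000533) and *Pax6* (-1.16, 0.0131) were lower in WT mESCs too, and *Zic2* was higher (1.20, 0.000515). Thus 6 of 7 members were called lower and 1 higher, where 60.6% of 12391 genes were called (26.3% higher, 34.3% lower). *Pax6* lost its call with near-identical libraries averaged (limma adjusted p = 0.141) and with the spread over all 12 groups (0.0659), and *Nes* with that shared spread (0.0662). Line, derivation and culture differ together between these groups and cannot be told apart.

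WT mESCs were also set beside WT blastocysts, the stage from which such cells are derived. *Zic2* was at least 1340-fold higher in WT mESCs, taking 3 reads over the 3 WT blastocyst pools as the floor, with a log2 fold change of 6.36 (limma adjusted p = 1.28e-07). *Fgf5*, too low for the test, was at least 5.81-fold higher by the same floor. *Nes* averaged 36.9 ± 4.72 in WT mESCs and 2.00 ± 0.818 in WT blastocysts (SD, n = 3 each), a log2 fold change of 3.68 ± 0.22 (SE, limma adjusted p = 2.43e-06). *Foxd3* was higher as well, by 1.84 ± 0.29 (SE, limma adjusted p = 0.000463). *Otx2* and *Tcf15* were lower in WT mESCs, by log2 fold changes of -1.42 ± 0.24 and -1.99 ± 0.25 (SE, limma adjusted p = 0.000692 and 0.000142). *Pax6* was not called (-0.46, limma adjusted p = 0.176). Of 6 members tested 3 were higher and 2 lower, where 81.5% of 12418 genes were called (43.9% higher, 37.5% lower) and the median over all genes was 0.15. The 7 trophectoderm markers summed to between 152 and 193 in WT mESCs and between 3384 and 3859 in WT blastocysts, with none at 0. That tissue and the library preparation, which is not stated for blastocysts, cannot be told apart from the change of state, nor can fewer cells of a type from less RNA per cell.

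In oocytes and embryos no member was called between KO and WT. In GV oocytes 0 of 2 members tested were called by limma, where 3.64% of genes were, and in zygotes 0 of 3, where 14.6% were. In 2-cell embryos it was 0 of 3 against 0.708%, and in blastocysts 0 of 5 against 0.00885%, which was 1 gene. None of these tests had an unadjusted p under 0.05, and edgeR on the recovered reads also called 0 in each. DESeq2 called 0 of those it gave an adjusted p, which left out *Nes* in GV oocytes, *Tcf15* in zygotes and both in 2-cell embryos. *Nes* ranged from 0 to 2.20 in KO GV oocytes (median 0.624) and from 0.256 to 2.85 in WT ones (median 1.64), with a log2 fold change of -0.34 (95% interval -0.98 to 0.29, limma adjusted p = 0.535). In zygotes *Nes* ranged from 0.287 to 4.81 in KO (median 2.05) and from 0.390 to 2.91 in WT (median 2.13). In 2-cell embryos it ranged from 0 to 3.54 in KO (median 0.428) and from 0 to 7.67 in WT (median 2.16), with a wide interval of -1.88 to 0.39 around -0.75 (limma adjusted p = 0.511). The KO and WT libraries overlapped at each stage, and at levels of a few reads per embryo changes within these intervals were not detectable.

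*Tcf15* ranged from 0.573 to 1.47 in KO zygotes (median 1.11) and from 0 to 3.10 in WT zygotes (median 0.797), a log2 fold change of 0.13 (limma adjusted p = 0.835). In 2-cell embryos *Tcf15* ranged from 0 to 6.58 in KO (median 0.445) and from 0 to 6.73 in WT (median 1.08). *Pax6* ranged from 7.77 to 11.5 in KO and from 5.93 to 10.6 in WT GV oocytes (medians 8.71 and 7.28), from 7.79 to 17.6 in KO and from 5.96 to 14.4 in WT zygotes (medians 11.4 and 10.4), and from 3.43 to 18.9 in KO and from 4.17 to 28.8 in WT 2-cell embryos (medians 7.70 and 9.25). The members overlapped between KO and WT in every one of these groups. KO 2-cell libraries 2 and 7 stood apart from the WT libraries (mean Pearson r of 0.70 and 0.43). *Inha*, a cumulus and granulosa marker, was at 749 and 3347 in these, at 11.2 to 186 in the other 6 KO libraries and at 0 to 0.961 in WT, so every KO 2-cell library lay above every WT one. The 7 cumulus and granulosa markers summed to between 137.9 and 3783 in KO and between 86.5 and 178 in WT 2-cell embryos (*Fshr* at 0 in WT), and the 10 fibroblast and smooth muscle markers to between 20.9 and 999.8 in KO (none at 0) and between 5.77 and 14.4 in WT (5 at 0). Their part in the 2-cell values was not tested. Leaving out libraries 2 and 7 does not remove *Inha* from the KO group. Without them the log2 fold changes were -0.52 for *Nes* (limma adjusted p = 0.829), -0.43 for *Pax6* (0.822) and -0.12 for *Tcf15* (0.970). In blastocysts the KO and WT pools overlapped for *Otx2*, *Foxd3*, *Nes* and *Tcf15*, while the 3 KO pools of *Pax6* averaged 8.16 ± 0.541 and the WT pools 9.34 ± 0.517 (SD, n = 3 each, log2 -0.18, limma adjusted p = 1.00).

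Members too low for these tests were read without a minimum level, where no member was called either (limma). *Tcf15* in GV oocytes had an unadjusted p = 0.0186 (log2 0.52, limma adjusted p = 0.184), from reads in 5 of 7 KO and 1 of 7 WT oocytes. The log2 differences in GV oocytes were 0.20 for *Foxd3*, 0.034 for *Zic2* and -0.057 for *Fgf5* (limma adjusted p = 0.432, 0.894 and 0.863). *Zic2* was at 0.23 in zygotes (0.402) and -0.23 in 2-cell embryos (0.539), where *Foxd3* was at 0.21 (0.605) and *Otx2* at 0.16 (0.808). In blastocysts *Fgf5* was at 0.050 and *Zic2* at 0.048 (limma adjusted p = 1.00 for each). *Otx2*, *Fgf5* and *Foxd3* had no read in zygotes, nor *Otx2* in GV oocytes or *Fgf5* in 2-cell embryos.

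From GV oocytes to zygotes and from zygotes to 2-cell embryos, no member was called either, although most genes were. The step from 2-cell embryos to blastocysts, whose library preparation is not stated, was not tested. For *Tcf15*, *Otx2* and *Foxd3*, every WT blastocyst pool lay above every WT 2-cell embryo, which was not so for the other members. From WT GV oocytes to WT zygotes, 64.9% of genes tested were called and 0 of 2 members, *Nes* at 0.32 (zygote over GV, limma adjusted p = 0.370) and *Pax6* at 0.31 (0.196). Neither had an unadjusted p under 0.05, and edgeR and DESeq2 called 0. Without a minimum level *Tcf15* was called higher in WT zygotes (0.84, limma adjusted p = 0.00812), from 21 reads in 7 zygotes and 1 read in 7 GV oocytes, while *Fgf5* (-0.15, 0.405) and *Zic2* (-0.090, 0.379) were not. From WT zygotes to WT 2-cell embryos, 75.1% of genes were called and 0 of 3 members (limma adjusted p-values of 0.510 for *Tcf15*, 0.790 for *Pax6* and 0.945 for *Nes*), again with no unadjusted p under 0.05 and 0 calls by edgeR and DESeq2. Without a minimum level *Zic2* (0.27, limma adjusted p = 0.136) and *Otx2* (0.20, 0.389) were not called in WT 2-cell embryos over WT zygotes.

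Other genes of the same step were read from a list of 17 formative and primed pluripotency genes that are not members. This list, like those below, was chosen with earlier results of these data known. In OE cells all 17 were called, 14 lower and 3 higher, where 49.9% of all genes were called, with a median log2 fold change of -0.64 where that of all genes was -0.02. *Dnmt3b*, a de novo DNA methyltransferase of the epiblast, was at 224 ± 4.55 in OE and 507 ± 6.69 in control cells (SD, n = 3 each, log2 -1.17, limma adjusted p = 1.2e-08). *Sall2*, a zinc-finger factor, was at 7.97 ± 1.56 in OE and 30.3 ± 0.275 in control cells (-1.82, 1.82e-06). *Cldn6*, a tight junction protein of epiblast and early epithelia, was at 36.4 ± 5.50 in OE and 113 ± 3.02 in control cells (-1.62, 2e-06). *Etv4*, an ETS factor downstream of FGF signalling, was one of the 3 that rose, at 71.8 ± 6.56 in OE and 28.8 ± 2.24 in control cells (1.29, 1.07e-06). With near-identical libraries averaged, 0 of the 17 were called by limma (median -0.62), and with the spread over all 12 groups 4 were, all lower. In KO mESCs 2 of 16 tested were called, both lower, a share close to the 13.9% of all genes (median -0.16 where that of all genes was -0.01). These were *Lin28b*, an RNA-binding repressor of let-7 miRNAs (13.0 ± 1.50 in KO and 27.4 ± 4.32 in WT mESCs, log2 -1.01, limma adjusted p = 0.0088), and *Sox11*, a SOX factor of early neural cells (8.13 ± 0.361 and 14.6 ± 1.39, -0.77, 0.00944). With near-identical libraries averaged, and with the spread over all 12 groups, limma called 1 gene of the list, lower in KO mESCs.

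**Figure D4:**
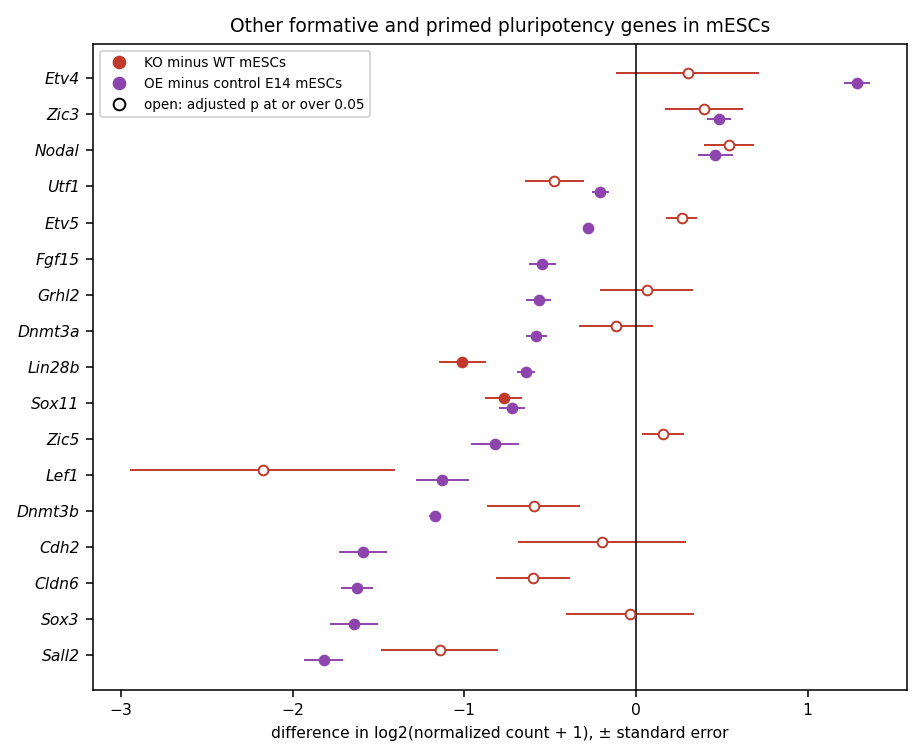
Differences in log2(normalized count + 1) (x axis, ± standard error) of the 17 other formative and primed pluripotency genes (y axis, by their OE difference): KO minus WT mESCs and OE minus control E14 mESCs. Open points are not past an adjusted p of 0.05. All 17 OE points are called, 14 left and 3 right of 0, against 2 called KO points (*Lin28b*, *Sox11*). *Fgf15* has no KO point because it was too low to be tested there.

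Naive pluripotency genes, read in the same way from a list of 12, were mostly called the other way. In OE cells 11 were higher and 1 lower (49.9% of all genes were called), with a median of 0.61. *Tbx3* was at 71.4 ± 3.64 in OE and 15.4 ± 0.603 in control cells (2.14, limma adjusted p = 1.2e-08) and *Klf5* at 145 ± 1.70 and 77.0 ± 0.727 (0.90, 6.65e-08), both transcription factors of the naive state. *Dppa3*, a maternal-effect gene of germ cells and naive cells, was the 1 that was lower. In KO mESCs 6 of 12 were higher and 1 lower (13.9% of all genes were called), with a median of 0.46. *Tfcp2l1*, a factor of the naive network, was at 1339 ± 88.8 in KO and 862 ± 60.3 in WT mESCs (0.64, limma adjusted p = 0.00467), and *Dppa3* again fell, to 13.2 ± 2.34 in KO against 68.3 ± 22.9 in WT mESCs (-2.24, 0.00704). With near-identical libraries averaged, limma called 1 higher and 0 lower in OE cells and 1 higher and 1 lower in KO mESCs. With the spread over all 12 groups, it called 1 higher and 0 lower in OE cells and 0 in KO mESCs.

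The remaining lists are to be read against the same 49.9% of all genes called in OE cells and 13.9% in KO mESCs. Of the 8 FGF-ERK signalling genes, 4 rose and 2 fell in OE cells, *Spry4*, a feedback inhibitor of the pathway, to 238 ± 19.7 in OE against 127 ± 2.74 in control cells (0.90, limma adjusted p = 1.53e-06), and the receptor *Fgfr2* to 12.4 ± 0.990 against 25.9 ± 1.37 (-1.01, 4.99e-06). In KO mESCs 1 of 7 rose, the ligand *Fgf4* (0.52, limma adjusted p = 0.0153), and 1 fell, the ERK inhibitor *Spred1* (-0.92, 0.0159). Of 17 neural and neuroectoderm genes, 6 were high enough to be tested in OE cells. The homeobox gene *Gbx2* rose (1.27, limma adjusted p = 1.57e-07), and *Neurod1* (a neuronal basic helix-loop-helix factor), *Hesx1* (a forebrain homeobox factor) and *Tubb3* (a neuronal tubulin) fell (-1.39, -0.82 and -0.44). In KO mESCs 7 were tested, *Olig2*, an oligodendrocyte and motor neuron factor, rose (1.27, limma adjusted p = 0.0255) and *Tubb3* fell (-0.79, 0.00432). Of the primitive streak, mesoderm and definitive endoderm genes, 0 of 1 tested in OE cells and 0 of 4 tested in KO mESCs were called by limma. With near-identical libraries averaged, limma called 0 genes of each of these 3 lists in both comparisons. With the spread over all 12 groups, it called 0 of the FGF-ERK genes in both, 1 neural gene lower in OE cells and 1 higher and 1 lower in KO mESCs, and 1 streak gene lower in KO mESCs.

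The genes whose 12 condition means ran most like those of a member, among 13093 genes, are given as a description. They were *Tlr2* for *Otx2* (Pearson r = 0.98), *Calcr* for *Fgf5* (0.97), *Prx* for *Foxd3* (0.98), *Sox3* for *Nes* (0.98), *Slc1a3* for *Tcf15* (0.98), *Srrm4os* for *Zic2* (1.00) and *Fam83b* for *Pax6* (0.90). The next were *Hpn* and *Jph1* for *Otx2*, *St6gal2* and *Mal2* for *Fgf5*, *Des* and *Zfp607a* for *Foxd3*, *Fzd8* and *Met* for *Nes*, *Pacsin3* and *Cblc* for *Tcf15*, *Sema4f* and *Scube3* for *Zic2* and *Inpp5f* and *Primpol* for *Pax6*. The 12 points share their libraries between genes, so these values carry no p. *Sox3*, on the list of formative genes, was the only one of these 21 that any of the gene lists held.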

How the data were processed

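RNA was sequenced in 61 libraries of 12 conditions. The authors used STAR 2.4.2a for alignment (mm9), HTSeq for counting over Ensembl genes and DESeq2 for scaling, and the deposited signal values are counts divided by size factors. Single oocyte, zygote and 2-cell libraries came from a Nextera XT protocol without strand (the kit for blastocysts is not given in the sources used here), mESC libraries from a stranded poly(A) kit. Of 18504 rows, 108 repeats of a gene were dropped, and 26 symbols turned into dates were restored. All values were whole multiples of 1 read (100% within 0.01), so reads were recovered for edgeR and DESeq2 as alternatives.

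In 11 comparisons, libraries were grouped by their labels and log2(value + 1) was fitted with limma (trend and robust, both sides), each on its own libraries. A gene was tested if it reached a value of 1 in a number of libraries equal to the size of the smaller group. P-values were adjusted by Benjamini-Hochberg (threshold 0.05). The fits were also run on simulated counts in which 200 genes had known changes, with an outcome not given here. Members with reads are named in each comparison, with the 3 genes most like each member with a condition mean of at least 5, and up to 4 genes of a list past the threshold. The members and lists were chosen with earlier results of these data known. Alternatives were other pseudocounts (0.1 and 5), filters, normalizations, tools, the spread shared by all 12 groups, a block on replicate number and leaving out each library. Averaging near-identical libraries (KO mESC 2 and 3, WT mESC 1 and 3, OE 1 and 2, all 3 controls) and leaving out KO 2-cell libraries 2 and 7 were chosen after seeing the data. The pairs of libraries treated as near-identical had a mean chi-square per gene of 1.07 to 3.15, where sampling noise alone gives about 1. The 3 control libraries, at 1.07 to 1.12, came close to that. All were kept as replicates in the results, so p-values against control E14 cells may count 1 culture as 3. Same-numbered libraries did not all deviate together (no comparison had every correlation over 0.1), so numbers were not used as pairs. Since 1 low correlation decides this rule, it cannot exclude pairing. Intervals come from the limma fits and reflect the spread between libraries. Floors of 3 reads cover counting error only. Software was limma 3.58.1, DESeq2 1.42.0 and edgeR 4.0.16 under R 4.3.3, and Python 3.11.15, with numpy 2.4.6, pandas 2.3.3 and matplotlib 3.10.9.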

Additional observations from a re-analysis of the deposited data

Results flagged for a closer look

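A single library lay far from the rest of its group for 5 of 18 combinations of a gene and a condition tested (oocyte, zygote and 2-cell conditions of 7 or 8 libraries). The rule flags about 1 in 20 by chance where values are normally spread. Many values here are a few reads, for which that rate need not hold, so no excess over chance is read from it. *Nes* was at 0.390 in WT zygote library 4, where the next lowest was 2.01. *Tcf15* was at 6.58 in KO 2-cell library 5 (next highest 1.98) and at 2.25 in KO GV library 6 (next 0.863). *Pax6* was at 11.5 in KO GV library 3 (next 9.36) and at 28.8 in WT 2-cell library 7 (next 12.2). In KO GV oocytes, libraries 1 and 3 both had 41 *Pax6* reads.

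The OE effect differed from the KO effect for 6 members in a test of the difference itself (limma, 12 mESC libraries). The difference on the log2(value + 1) scale was -2.77 for *Fgf5* (adjusted p = 0.00181), -2.17 for *Otx2* (0.000182), -1.74 for *Nes* (0.00487), -1.56 for *Zic2* (0.000294), -1.30 for *Foxd3* (0.000228) and 1.09 for *Tcf15* (0.000609). KO and OE were studied in different lines with different starting levels, and the part of the line in these differences was not tested.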

How the results depend on the processing

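Counts of members called by limma moved by over 1.5 times under these settings. In KO mESCs the count was 1 with the spread over all 12 groups and 1 with near-identical libraries averaged, in place of 3, and leaving out 1 library gave 1 to 4 (1 without KO library 2 or 3). In OE cells it was 0 with near-identical libraries averaged, in place of 6, and stayed at 6 without any 1 library. For the OE effect minus the KO effect it was 3 with the spread over all 12 groups and 0 with near-identical libraries averaged, in place of 6, and 6 to 7 without 1 library. For WT mESCs against WT blastocysts it was 3 in place of 5 with a minimum value of 10, since fewer members were tested. For WT zygotes against WT GV oocytes it was 1 (*Tcf15*) in place of 0 without a minimum, since more members were tested. Apart from the settings explained by the number of members tested, and averaging, which leaves fewer samples, the cause was not tested. Over all genes, averaging near-identical libraries left 108 higher and 39 lower in KO mESCs, and 6 higher and 31 lower in OE cells. Without WT mESC library 2, limma called 2089 genes higher and 1963 lower in KO mESCs, in place of 988 and 670. The averaging, and the fit without KO 2-cell libraries 2 and 7, were chosen after seeing the data.

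Direction turned only for differences between oocytes or embryos that limma had not called. In KO zygotes, *Nes* was 0.030 with a pseudocount of 5 and 0.15 by edgeR and by DESeq2 (-0.18 to 0.20 without 1 library), and *Tcf15* was -0.013 by DESeq2 (-0.017 to 0.32 without 1 library). In KO 2-cell embryos, *Pax6* ran from -0.32 to 0.10 without 1 library. In KO blastocysts, *Foxd3* was 0.054 with a pseudocount of 5 and 0.43 by edgeR and by DESeq2 (-0.76 to 0.48 without 1 library), while leaving out 1 library gave -0.12 to 0.37 for *Otx2* and -0.30 to 0.21 for *Tcf15*. In WT 2-cell embryos over WT zygotes, *Nes* was -0.36 with a pseudocount of 0.1 (-0.22 to 0.30 without 1 library), and *Pax6* was 0.014 with size factors of the comparison, 0.26 by edgeR and 0.24 by DESeq2 (-0.37 to 0.056 without 1 library). For the members taken singly, the fits without 1 library kept direction and call 413 times, gained a call 3 times, lost one 7 times and turned 26 times, and the other settings did so 524, 2, 26 and 11 times.

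With the replicate number as a block, no count of members called moved by over 1.5 times. In KO mESCs the block fit called 3, *Tcf15* losing its call (limma adjusted p = 0.0948) and *Pax6* gaining one (0.0440). Whether same-numbered libraries share more than a number is not stated.

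In single oocytes and embryos the members had at most 28.8 normalized counts a library, so small changes were not detectable there.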
